A study of Drosophila melanogaster with 8 samples.

Results

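Heat shock proteins are chaperones that hold, fold or refold other proteins, and Hsf is the transcription factor that drives many of their genes when cells are stressed. Small heat shock proteins bind unfolding proteins and keep them soluble, Hsp70 family proteins refold them with ATP, and Hsp90 matures signalling proteins. In flies, several of these genes are also active without stress, in nurse cells of the ovary and in the male germline. The genes followed here are 10 of the 15146 in the deposited tables, chosen by name: the small heat shock genes Hsp22, Hsp23, Hsp26, Hsp27 and Hsp67Bc, the Hsp70 family genes Hsp68, Hsc70-3 and Hsc70-4, the Hsp90 gene Hsp83, and Hsf.

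RNA was sequenced from w1118 flies, a common laboratory strain of Drosophila melanogaster that all groups share. The groups are sperm taken from adult males fed 300 g/L sugar (high) or 30 g/L sugar (medium), and whole F1 embryos at stage 17, the end of embryonic development, fathered by males on high or medium sugar. Each of the 4 groups holds 2 libraries, and the labels do not say whether they came from separate crosses or collections. The deposited tables give 1 FPKM value per gene and group (fragments per kilobase of transcript, scaled to sequencing depth), so each level below is a group value with no spread between libraries, and the depth is unknown. The p-values are the authors' own test of the libraries, given in their deposited tables, and may therefore measure technical spread alone. Ratios are high over medium sugar on log2(FPKM + 0.1), which understates the change of low genes. A gene was called when its adjusted p was under 0.05.

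The tissue labels were set beside marker genes. Summed over 16 spermatid genes, the level in sperm was 1779.9 FPKM on high sugar and 778 FPKM on medium sugar, with none of the 16 at 0, against 4.14 and 5.14 FPKM in embryos, where 6 were at 0 in both groups. Sperm also held RNA of other tissues: 12 muscle genes summed to 3308 FPKM on high and 3433 FPKM on medium sugar, and 10 accessory gland genes to 225 and 107 FPKM. In embryos the accessory gland genes summed to 18.2 and 22.3 FPKM. Of them Acp95EF, at 67.8 and 27.2 FPKM in sperm on high and medium sugar, shares its locus with other genes. The 6 ejaculatory duct and bulb genes summed to 1099 and 577 FPKM in sperm. Of 12 embryonic cuticle genes, 0 were at 0 in both sugar groups of embryos and 5 were at 0 in both sugar groups of sperm. In such bulk samples, fewer cells of a type and less RNA per cell cannot be told apart.

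Hsp22, Hsp23, Hsp26, Hsp27 and Hsp68 were far more abundant in sperm than in stage 17 embryos, while Hsp83 and the constitutive Hsp70 genes were abundant in both. The sperm samples also held muscle and accessory gland RNA, and which cells the heat shock RNA came from was not tested. Because the tables were made separately, the ratio across tissues is a description with no test. It was positive for 7 of 10 members on high sugar and 8 of 10 on medium sugar, where 35.4% and 34.2% of genes at 1 FPKM or more in either tissue were higher in sperm. The median log2 ratio of sperm over embryo was 2.43 for the members on high sugar and 2.54 on medium sugar, against -0.73 and -0.76 over those genes.

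Hsp22, a small heat shock protein of mitochondria, had 229 FPKM in sperm on high sugar and 306 FPKM in sperm on medium sugar. In embryos it had 0.294 FPKM on high sugar and 0.805 FPKM on medium sugar, so the RNA was abundant in the sperm samples and near absent from embryos. The ratio of sperm over embryo was 779 on high sugar and 380 on medium sugar, and 0.486% and 0.564% of genes had a log2 ratio at or above it. The size of this ratio is uncertain, since it divides by embryo values of 0.294 and 0.805 FPKM. Hsp22 also shares its locus with Hsp67Bb, which makes its own values less certain.

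Hsp68, a stress-induced cytosolic member of the Hsp70 family, had 183 FPKM in sperm on high sugar and 228 FPKM in sperm on medium sugar, against 1.07 and 0.826 FPKM in the embryos of high and medium sugar fathers. Hsp26, a cytosolic small heat shock protein, had 328 FPKM in sperm on high sugar and 447 FPKM on medium sugar, against 2.23 and 4.57 FPKM in the corresponding embryos. Both genes were low in embryos and among the abundant RNAs of the sperm samples, where Hsp26 stood at rank 181 of 15146 on high sugar and 147 on medium sugar. Hsp23 was 11.1 times higher in sperm than in embryos on high sugar and 11.3 times on medium sugar. For the nuclear small heat shock protein Hsp27 these ratios were 16.4 and 15.9.

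The other members differed less between tissues. Hsp67Bc, a small heat shock protein known to act in protein triage with the cochaperone Starvin, had 51.9 FPKM in sperm on high sugar and 66.2 FPKM on medium sugar, against 56.9 and 64.0 FPKM in embryos. Its sperm over embryo ratio was 0.912 on high sugar and 1.03 on medium sugar, so it alone of the 5 small heat shock genes was about as abundant in both tables. Hsc70-4, the constitutive cytosolic Hsp70, led the members in all 4 groups, with 587 and 582 FPKM in sperm on high and medium sugar and 413 and 361 FPKM in embryos. Hsc70-3, the Hsp70 of the endoplasmic reticulum known as BiP, was lower in sperm, at 119 and 136 FPKM on high and medium sugar, than in embryos, at 206 and 249 FPKM. Hsf had 16.1 and 20.5 FPKM in sperm on high and medium sugar and 26.4 and 32.0 FPKM in embryos. Its log2 ratio of sperm over embryo was -0.71 on high sugar and -0.64 on medium sugar. The medians over genes at 1 FPKM or more in either tissue were close to these, at -0.73 and -0.76. Hsc70-3 also lay near these medians, at -0.79 and -0.87 on high and medium sugar. Hsp67Bc lay above them, at -0.13 and 0.05.

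**Figure D1:**
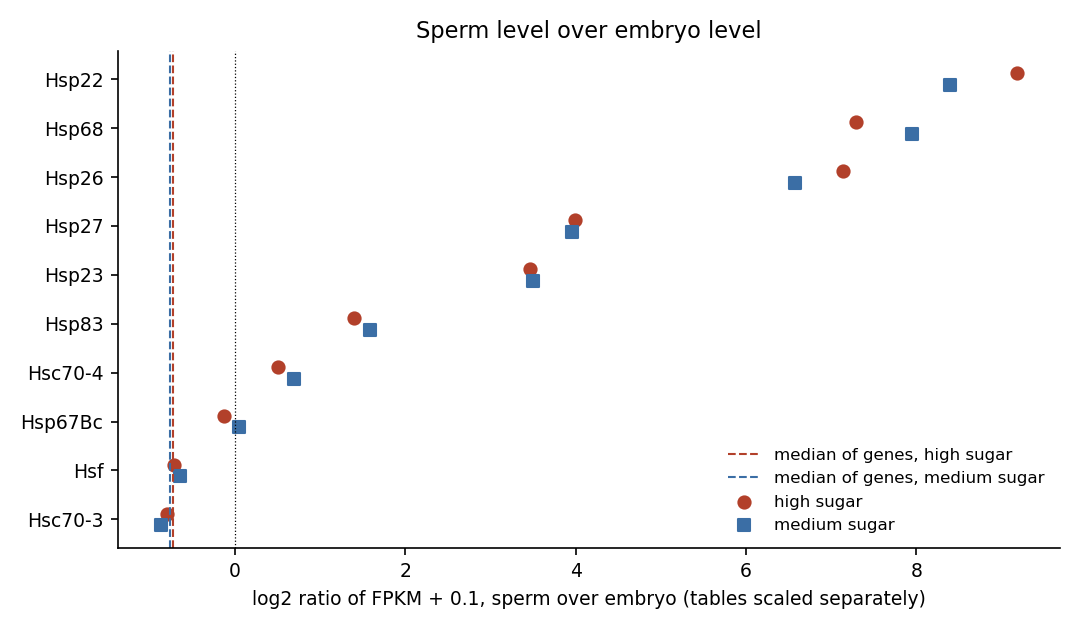
Log2 ratio of sperm over embryo for each member (x axis, FPKM + 0.1; 1 circle for high and 1 square for medium sugar; dashed lines, medians of genes at 1 FPKM or more in either tissue). Hsp22, Hsp68 and Hsp26 lie farthest to the right, at 9.18, 7.29 and 7.14 on high sugar, and Hsf and Hsc70-3 lie near the dashed medians. Hsp22 shares its locus with Hsp67Bb and was under 1 FPKM in embryos.

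Within a tissue FPKM is per transcript length, so the levels of genes can be ordered. In sperm on high sugar the order was Hsc70-4, Hsp83, Hsp26, Hsp22, Hsp68, Hsp23, Hsc70-3, Hsp27, Hsp67Bc and Hsf. On medium sugar 3 pairs of neighbours stood the other way round, Hsp83 with Hsp26, Hsp68 with Hsp23, and Hsp27 with Hsp67Bc, so their order is not stable between groups. In embryos of high sugar fathers the order was Hsc70-4, Hsc70-3, Hsp83, Hsp67Bc, Hsf, Hsp23, Hsp27, Hsp26, Hsp68 and Hsp22, and in those of medium sugar fathers Hsp27 and Hsp26 changed places.

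**Figure D2:**
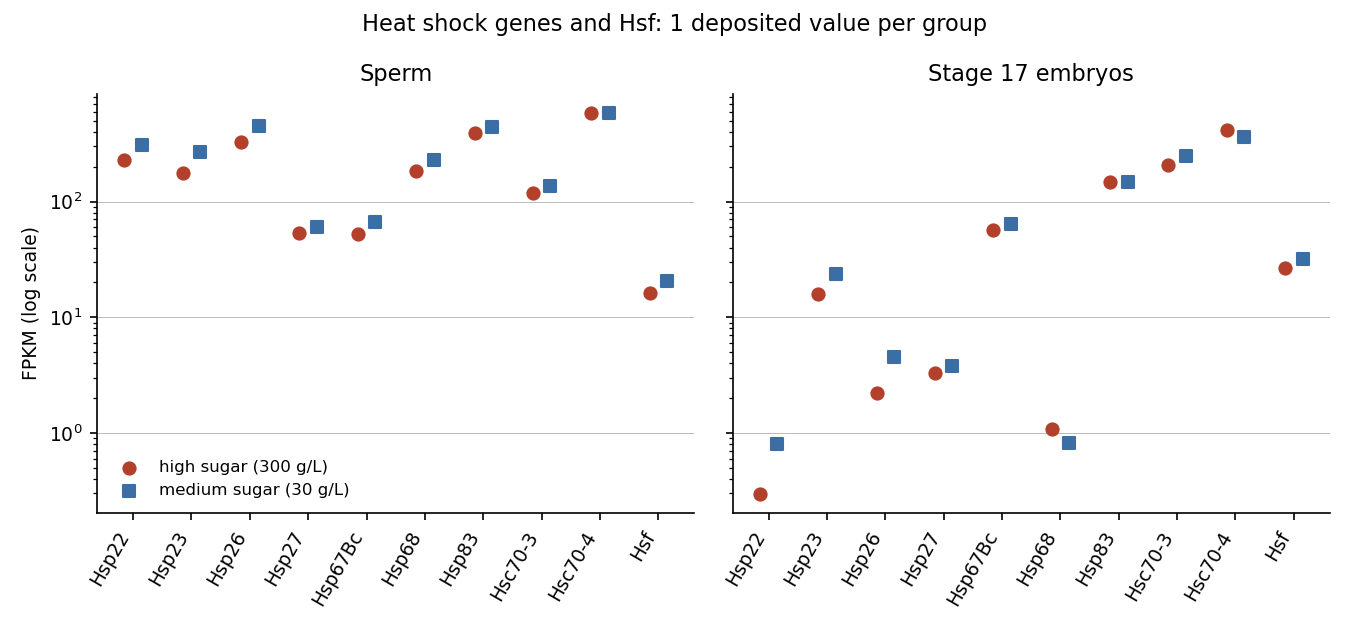
FPKM of the 10 genes (log scale) in sperm and in stage 17 embryos, with a circle for high sugar and a square for medium sugar, 1 deposited value each. In sperm the genes lie between 16.1 and 587 FPKM on high sugar, and in embryos of high sugar fathers between 0.294 and 413 FPKM.

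The sperm comparison asks whether the father's own food was accompanied by a difference in the RNA of his sperm. Most heat shock genes had somewhat lower values on high sugar, and none was called. Of the 10 members 9 were tested, and 0 were called in the authors' deposited table (each of the 9 at an adjusted p of 0.996), where 0.341% of 6453 tested genes were called. At an unadjusted p under 0.05 the count was also 0, where 3.95% of tested genes passed. The log2 ratio was below 0 for 9 of 10 members, as for 55.1% of tested genes, and the median was -0.33 over the members and -0.05 over tested genes. The smallest difference that the authors' test called in sperm was 2.41-fold, and no member differed by as much.

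The 5 small heat shock genes were each lower on high sugar, summing to 839 FPKM on high sugar and 1146 FPKM on medium sugar, a ratio of 0.732. Hsp23 had the lowest ratio, with 176 FPKM on high sugar and 266 FPKM on medium sugar (log2 ratio -0.60, p = 0.0747 in the authors' deposited table), and 11.4% of tested genes had a lower log2 ratio. Hsp26 had 328 and 447 FPKM (log2 ratio -0.45, p = 0.143 in the authors' deposited table). For Hsp22, which the authors' test left out, the log2 ratio was -0.42, and Hsp67Bc and Hsp27 came to -0.35 and -0.15.

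Among the ATP-driven chaperones of sperm, Hsp68 had 183 FPKM on high sugar and 228 FPKM on medium sugar (log2 ratio -0.32, p = 0.3 in the authors' deposited table). Hsp83 had 392 FPKM on high sugar and 442 FPKM on medium sugar (log2 ratio -0.17), and Hsc70-3 had a log2 ratio of -0.20. Hsc70-4, at 587 and 582 FPKM, had a log2 ratio of 0.01. Hsf had 16.1 FPKM on high sugar and 20.5 FPKM on medium sugar (log2 ratio -0.35, p = 0.372 in the authors' deposited table). Beside these values, all 16 spermatid markers were higher on high sugar, with a median log2 ratio of 1.12. Of the 15 tested, 3 were called, S-Lap1, S-Lap7 and loopin-1, where 0.341% of all tested genes were. S-Lap7 shares its locus with Cpr50Ca. The marker lists were chosen with earlier results of these data known, so their directions are no independent evidence. The 12 muscle markers had a median log2 ratio of -0.03 and 0 calls, with 5 above 0 and 7 below. The 6 ejaculatory duct and bulb markers summed to 1099 FPKM on high sugar and 577 FPKM on medium sugar, with Dup99B called higher. The adjusted p of Dup99B was 0.0314 in the authors' deposited table, and 0.0849 when their p-values were adjusted again over tested genes. The 11 fat body and oenocyte markers summed to 139 and 439 FPKM, with Tsf1 called lower, 5 members above 0 on the log2 ratio, 3 below and Fbp2, Lsp1alpha and Yp3 at 0 in both groups. Without Tsf1 the direction of that sum turned: the other 10 summed to 31.7 FPKM on high sugar and 9.67 FPKM on medium sugar, most of it from Cyp4g1, at 29.9 and 8.29 FPKM (p = 0.00865 and not called in the authors' deposited table). Cyp4g1 shares its locus in the tables with other genes. The 7 haemocyte markers summed to 60.8 and 63.5 FPKM and the 8 neuron and glia markers to 65.1 and 54.0 FPKM. The part of such shifts in the heat shock values was not tested.

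The embryo comparison asks whether the father's food was accompanied by a difference in the RNA of his offspring. The 5 small heat shock members were again on the low side in embryos of high sugar fathers. Hsp68, Hsc70-4 and Hsp83 were not, and no member was called. Of the 10 members 9 were tested, and 0 were called in the authors' deposited table (each of the 9 at an adjusted p of 0.999), where 0.807% of 10163 tested genes were called. At an unadjusted p under 0.05 the count was 1, Hsp26, where 3.34% of tested genes passed. The log2 ratio was below 0 for 7 of 10 members, as for 56.6% of tested genes, with a median of -0.24 over the members and -0.04 over tested genes. The smallest difference called in embryos was 1.97-fold, and of the members Hsp26 and the untested Hsp22 differed by more.

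Hsp26 had 2.23 FPKM in embryos of high sugar fathers and 4.57 FPKM in those of medium sugar fathers (log2 ratio -1.0, p = 0.0355 and adjusted p = 0.999, both as the authors deposited them), and 1.29% of tested genes had a lower log2 ratio. Hsp23 had 15.8 FPKM on high sugar and 23.5 FPKM on medium sugar (log2 ratio -0.57, p = 0.0613 in the authors' deposited table). Hsp22 had a log2 ratio of -1.20 from values of 0.294 and 0.805 FPKM, was not tested by the authors, and depends on the pseudocount at this level. Hsp27, at 3.28 and 3.77 FPKM, and Hsp67Bc, at 56.9 and 64.0 FPKM on high and medium sugar, had log2 ratios of -0.20 and -0.17. All 5 small heat shock genes were thus below 0 in both tissues, with medians of -0.57 in embryos and -0.42 in sperm, and the low values of Hsp22 and Hsp26 in embryos make those ratios the least certain.

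Hsp68 had 1.07 FPKM in embryos of high sugar fathers and 0.826 FPKM in those of medium sugar fathers (log2 ratio 0.34, p = 0.701 in the authors' deposited table). Its sign was positive in embryos and negative in sperm, and the difference between the tissues was not tested. Hsp83 was at 149 FPKM on high sugar and 147 FPKM on medium sugar, a log2 ratio of 0.01. Hsc70-4 had a log2 ratio of 0.19 and Hsc70-3 one of -0.28, and the authors' deposited table gives p = 0.564 and p = 0.392 for them. Hsf had 26.4 FPKM on high sugar and 32.0 FPKM on medium sugar (log2 ratio -0.27, p = 0.299 in the authors' deposited table). Hsf was therefore on the low side in both tissues, by log2 differences that the test did not separate from the spread between libraries.

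Several heat shock RNAs are loaded into the fly egg, so a list of maternal and germline genes was set beside the embryo values. The 25 genes summed to 111 FPKM in embryos of high sugar fathers and 144 FPKM in those of medium sugar fathers. In these sums gcl alone had 68.4 and 58.6 FPKM, the other way round, and it shares its locus with other genes. Of the 16 tested genes of the list, 6 were called lower (Cp15, CycB, krimp, osk, smg and wisp) and 0 higher. Over all tested genes 0.807% were called. The log2 ratio was above 0 for 6 of the 25 genes and below 0 for 16, and Cp19, Cp36 and Cp38 were at 0 in both groups. The list was drawn up with results of these tables known, so its direction is no independent evidence, and its part in the Hsp26 and Hsp23 values was not tested. Of the 12 cuticle genes, 7 were called higher and 0 lower in the same embryos, with log2 ratios above 0 for 10 and below 0 for 2.

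**Figure D3:**
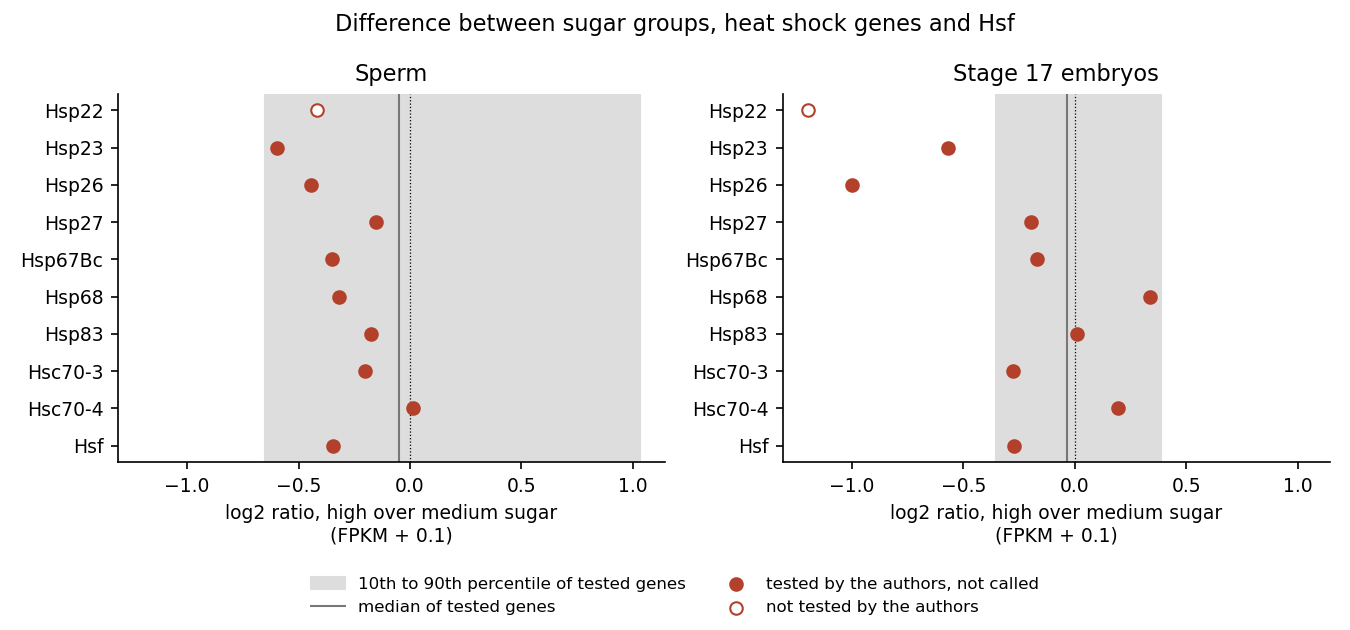
Log2 ratio of high over medium sugar for each member in sperm and in embryos (x axis, FPKM + 0.1), with the 10th to 90th percentile range of tested genes in grey and their median as a line. In sperm all members lie inside the grey range of -0.65 to 1.03, and in embryos Hsp22, Hsp26 and Hsp23 lie below its lower end of -0.35.

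The 5 small heat shock genes lie together on chromosome 3L, from 9364611 to 9378384 (BDGP5), a span of 13.8 kb with 8 genes in the tables. The other genes of the span are Hsp67Bb, CG4461 and Hsp67Ba, and CG4461 and Hsp67Ba belong to the same protein family. Neighbours in the cluster differed widely in level. Hsp26, at 9369518 to 9370527, had 328 FPKM in sperm on high sugar and 447 FPKM on medium sugar, while its neighbour CG4461, at 9368530 to 9369393, had 0.620 and 1.32 FPKM. On the other side Hsp67Ba, at 9370902 to 9372634, had 1.43 and 0.977 FPKM in the same sperm groups. Of the 8 genes, 7 were below 0 on the log2 ratio in sperm, the exception being Hsp67Ba, as were 55.1% of tested genes. In embryos 7 were below 0, the exception being CG4461, as were 56.6% of tested genes. CG4461, Hsp67Ba and Hsp22 were not tested in either tissue, and CG4461 in embryos had only 0.0479 FPKM on high sugar and 0 on medium sugar.

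Hsp22 and Hsp67Bb share 1 locus in the tables, at 9365822 to 9368064, so reads between them are hard to assign and their separate values are less certain. Their levels ran opposite ways in the tissues. In sperm Hsp22 had 229 FPKM on high and 306 FPKM on medium sugar, and Hsp67Bb had 10.1 and 15.4 FPKM. In embryos Hsp67Bb had 24.7 and 26.7 FPKM on high and medium sugar, and Hsp22 had 0.294 and 0.805 FPKM.

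**Figure D4:**
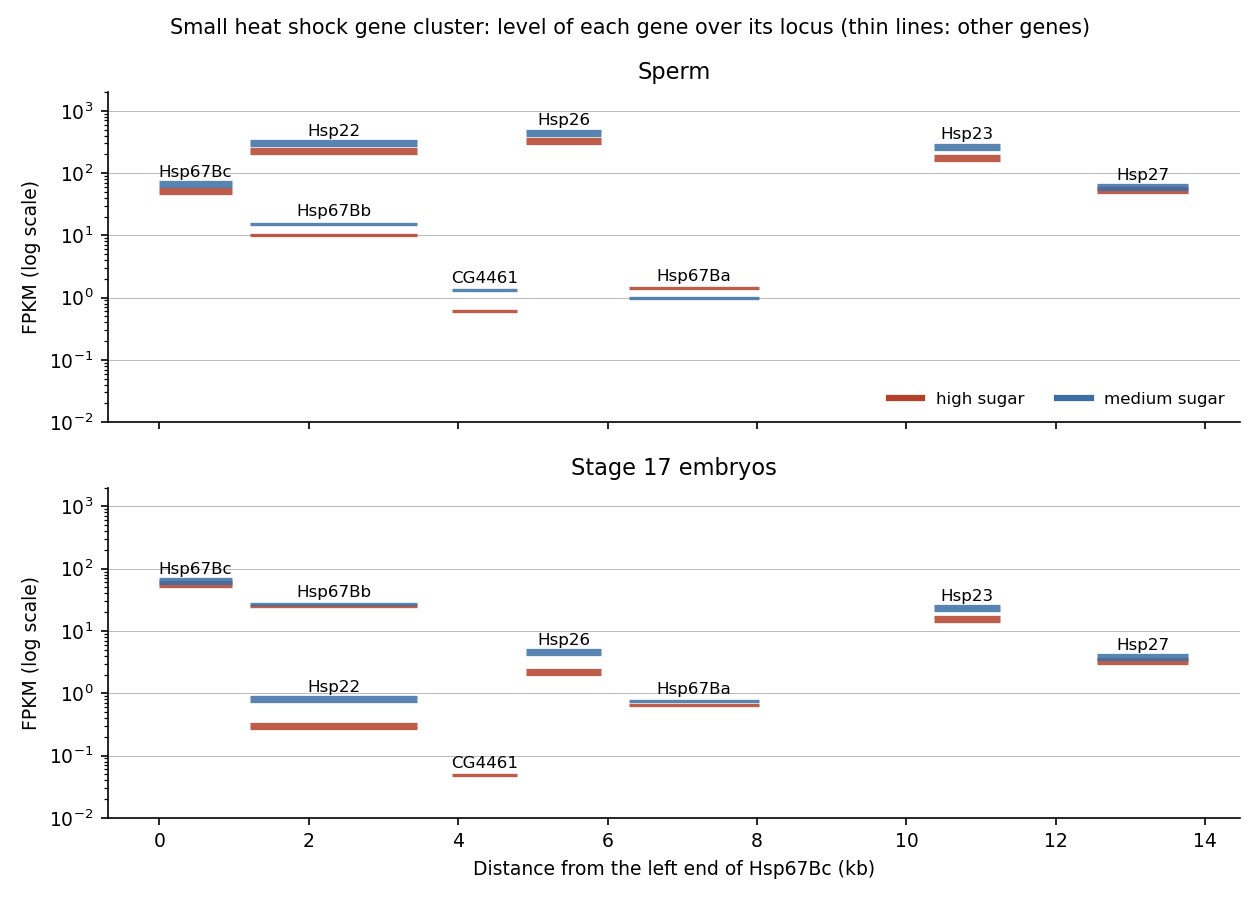
Level of each gene of the small heat shock cluster (FPKM, log scale), drawn as a bar over its locus, by distance in kb from the left end of Hsp67Bc, in sperm and embryos (thick bars, members; thin bars, the other genes; CG4461 on medium sugar in embryos is at 0 and not drawn). In sperm Hsp22, Hsp26 and Hsp23 stand at 176 FPKM or more on high sugar, and CG4461 and Hsp67Ba at 1.43 FPKM or less.

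The remaining members lie apart: Hsp83 on 3L at 3193027 to 3197614, Hsp68 on 3R at 19880140 to 19883029, Hsc70-4 on 3R at 11068370 to 11072336, Hsc70-3 on X at 11695729 to 11701212 and Hsf on 2R at 14017808 to 14022136. Hsp68 shares its locus in the tables with CG6000 and Hsp83 with CG14966. Genes without introns can be expressed when heat blocks splicing, and this is a known trait of many heat shock genes. In the BDGP6 annotation every transcript of 5 of the 10 members has a single exon (Hsp23, Hsp26, Hsp27, Hsp67Bc and Hsp68), a share of 50.0% against 15.3% of 13006 protein-coding genes of the tables. Apart from Hsp67Bc, these were among the genes whose RNA was at least 11.1 times higher in sperm than in embryos. Hsp22, the member with the highest ratio of sperm over embryo, is not of this set, as its transcripts have 1 to 3 exons. A link between exon number and sperm level was not tested. Transcripts of Hsf have 7 to 9 exons.

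Other chaperones were read from 9 lists of 63 genes in all, each found in the tables. None was called: 0 of 48 tested in embryos and 0 of 57 tested in sperm, where 0.807% and 0.341% of all tested genes were. At an unadjusted p under 0.05 the count was 0 of 48 in embryos, beside 3.34% of tested genes, and 6 of 57 in sperm, a share of 10.5% beside 3.95% of tested genes. The Hsp70 genes, the textbook heat-induced chaperones, were nearly silent in embryos, where the 6 genes summed to 0.274 FPKM on high sugar and 0.800 FPKM on medium sugar, and none was tested. In sperm they summed to 35.8 FPKM on high sugar and 48.9 FPKM on medium sugar. Hsp70Bb had 13.8 FPKM on high sugar and 20.5 FPKM on medium sugar, and Hsp70Ba 12.1 and 11.7 FPKM. The copies are nearly identical in sequence, which makes the split of reads among them uncertain. The noncoding heat shock RNA Hsromega had 498 FPKM on high sugar and 612 FPKM on medium sugar in sperm, and 344 and 368 FPKM in embryos.

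Among the J-domain and BAG cochaperones, which work with Hsp70 family proteins, some had higher levels in sperm than in embryos, DnaJ-1 and stv among them. Over the 12 of 13 that averaged 1 FPKM or more, the median log2 ratio of the sugar groups was -0.14 in sperm and -0.08 in embryos, against -0.05 and -0.04 over tested genes. DnaJ-1, a J-domain protein that delivers clients to Hsp70, had 161 FPKM in sperm on high sugar and 216 FPKM on medium sugar (log2 ratio -0.43, p = 0.153 in the authors' deposited table), and 29.6 and 36.97 FPKM in embryos. The BAG protein gene stv, which encodes Starvin, had 82.7 and 85.7 FPKM in sperm on high and medium sugar and 6.34 and 5.59 FPKM in embryos, higher in sperm as most stress-induced members were. In embryos the highest of this list was mrj, at 82.0 and 95.8 FPKM, followed by Tpr2, at 69.7 and 80.3 FPKM on high and medium sugar. The J-domain gene jdp, one of the 6 sperm chaperones at an unadjusted p under 0.05, had 4.08 FPKM in sperm on high sugar and 12.8 FPKM on medium sugar, the lowest ratio on the chaperone lists, with p = 0.0175 (adjusted, 0.777) in the authors' deposited table.

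Of the Hsp90 cochaperones, p23 (CG16817) was the most abundant, with 194 and 192 FPKM in embryos of high and medium sugar fathers and 50.6 and 46.4 FPKM in sperm on high and medium sugar. CG1416, the fly Aha1, had 53.8 and 57.4 FPKM in embryos, and Hop, which links Hsp70 to Hsp90, had 20.6 and 29.5 FPKM in sperm. The median log2 ratio of the 7 genes was -0.09 in embryos and 0.12 in sperm. The small heat shock genes outside the members were led by l(2)efl, with 275 and 255 FPKM in sperm on high and medium sugar and 119.8 and 123 FPKM in embryos, and CG14207, with 222 and 206 FPKM in embryos. CG7409 had 152 and 185 FPKM in sperm on high and medium sugar and 2.11 and 0.540 FPKM in embryos, but shares its locus with 9 other genes. Of the 6 small heat shock genes outside the members, 3 were above 0 and 3 below on the log2 ratio in embryos (median 0.03). In sperm 2 were above 0 and 3 below (median -0.14), with CG13133 at 0 in both groups. Only 3 of the 6 averaged 1 FPKM or more in embryos, and 4 in sperm.

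The highest ratios among the tested chaperones of sperm belonged to Hsc70-1, Hsp60B, Hsp60D and CG9920. Hsp60B, an Hsp60 paralog used in spermatogenesis, had 24.0 FPKM in sperm on high sugar and 9.31 FPKM on medium sugar (log2 ratio 1.35, p = 0.0053, adjusted to 0.369 in the authors' deposited table), and 0 and 0.0631 FPKM in embryos. Hsp60D had 16.03 and 6.26 FPKM and the Hsp10-like CG9920 had 71.6 and 28.8 FPKM in sperm on high and medium sugar. Hsc70-1 had 11.96 and 3.96 FPKM in the same groups. In the authors' deposited table each passed an unadjusted p of 0.05 but was not called, and their ratios lay in the range of the spermatid markers. The general mitochondrial chaperonins were the more abundant ones in embryos. Hsp60 had 21.6 and 23.5 FPKM in sperm on high and medium sugar and 81.9 and 61.4 FPKM in embryos. CG11267, the fly Hsp10, had 34.7 and 40.0 FPKM in sperm and 391 and 384 FPKM in embryos. Among the other Hsc70 genes the mitochondrial Hsc70-5 had 92.2 and 92.8 FPKM in embryos and 26.4 and 23.6 FPKM in sperm on high and medium sugar. Hsc70Cb, an Hsp110, had 31.5 and 32.0 FPKM in sperm and 26.6 and 26.3 FPKM in embryos.

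The 8 TRiC genes, which encode the cytosolic ring chaperonin that folds actin and tubulin, had 0 calls in either tissue. Their median log2 ratio was 0.14 in embryos, with 7 of 8 above 0, and -0.34 in sperm, with 6 of 8 below 0. T-cp1 was the most abundant in embryos and in sperm on medium sugar, but not in sperm on high sugar, where Cct5 led with 24.1 FPKM. T-cp1 had 44.6 and 45.3 FPKM in embryos and 21.3 and 32.1 FPKM in sperm on high and medium sugar. CG7033, another subunit, had 39.8 and 35.8 FPKM in embryos and 22.4 and 30.9 FPKM in sperm, and CG5525 had 42.4 and 37.7 FPKM in embryos. The subunits thus lay within a narrow range of levels in each tissue, from 26.1 to 44.6 FPKM in embryos of high sugar fathers. The 10 genes of the endoplasmic reticulum had medians of -0.09 in embryos and -0.14 in sperm, against -0.28 and -0.20 for their partner Hsc70-3. Pdi, which forms disulfide bonds, had 251 and 284 FPKM in embryos and 152 and 172 FPKM in sperm on high and medium sugar. Crc, which encodes the calcium-binding chaperone calreticulin, had 251 and 274 FPKM in embryos and 140.2 and 172 FPKM in sperm. ERp60, another disulfide isomerase, had 218 and 243 FPKM in embryos and 151 and 163 FPKM in sperm. CaBP1, a disulfide isomerase, had 18.6 FPKM in sperm on high sugar and 33.3 FPKM on medium sugar (p = 0.0409, adjusted to 0.996 in the authors' deposited table).

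**Figure D5:**
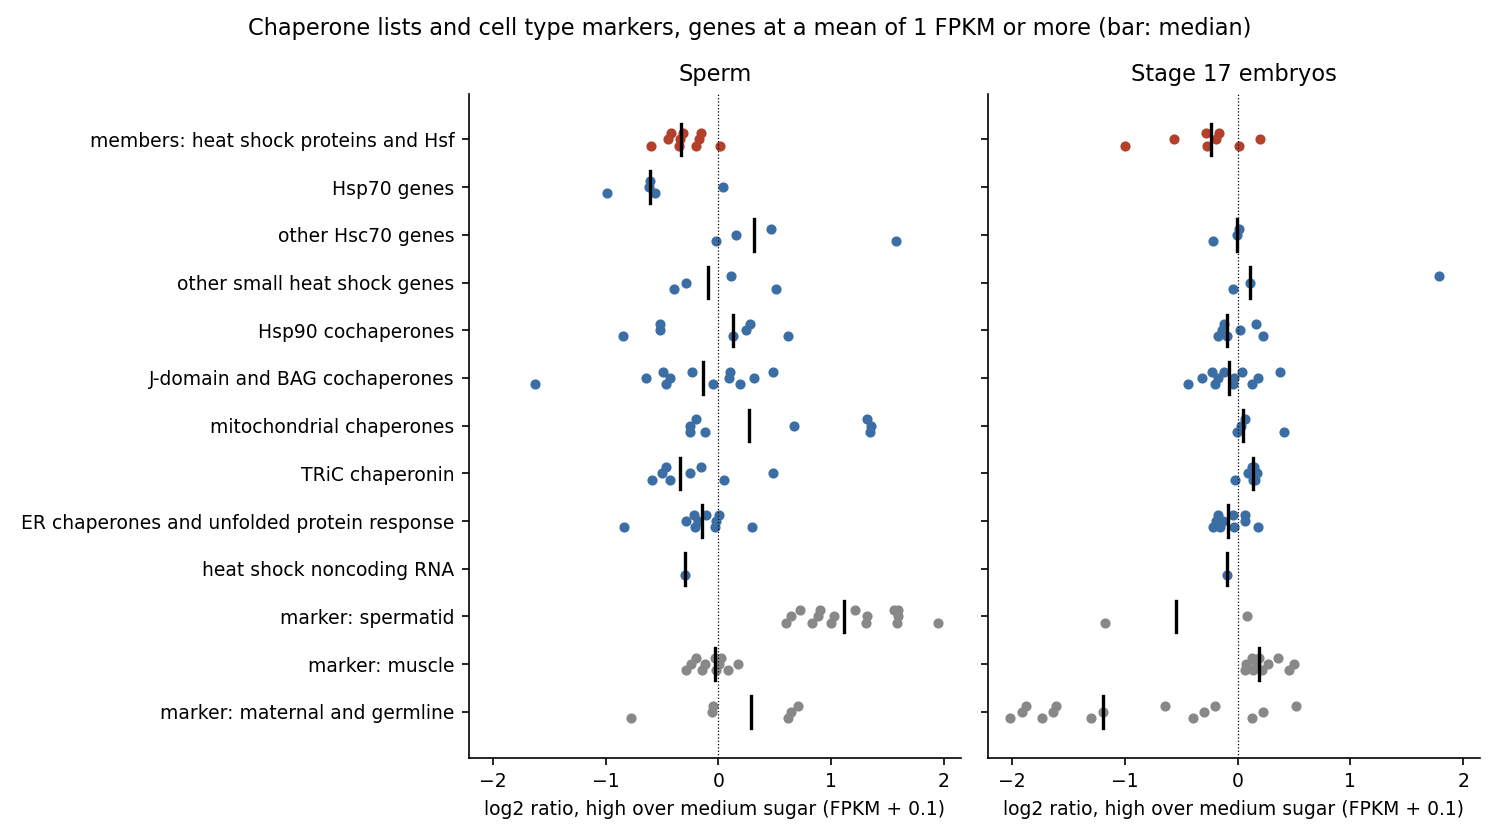
Log2 ratio of high over medium sugar (x axis, FPKM + 0.1) for genes averaging 1 FPKM or more, in sperm and in embryos, by list, with the median as a bar (red, the members; blue, other chaperones; grey, markers). In sperm the spermatid markers lie to the right of 0 with a median of 1.12, and the members' median is -0.33.

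The genes nearest to 3 of the members over the 4 group values were found by the distance between log2 profiles. Each profile was centred on its own mean. The search covered 3659 genes outside the members with at least 1 FPKM in each group. Genes known only by a CG or CR number were left out. For Hsf the nearest were ben (distance 0.04), rho-7 (0.04) and Btk29A (0.08), with 73 of the searched genes within 0.2. For Hsp83 they were Esyt2 (0.05), uzip (0.05) and Krn (0.08). For Hsp26 no searched gene lay within 0.2, and the nearest were regucalcin (0.91), Kaz1-ORFB (0.92) and Inos (1.15). Within 0.2 of Hsp83 lay 30 of the searched genes, fewer than for Hsf, and the count for a typical gene is not given. The floor of 1 FPKM in each group left out genes that were lower in embryos. The search therefore cannot say whether such genes match Hsp26. The 4 values allow only a coarse likeness.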

How the data were processed

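Per the labels, libraries were stranded and made from Trizol-extracted total RNA after removal of ribosomal RNA. The submitters' processing notes name TopHat2 2.0.8, Cuffdiff 2.1.1 and the genome build BDGP5, and the sources used here do not give the annotation, options or scaling. Per the file headers, the deposited values are FPKM, 1 per gene and group, so both libraries of a group had been combined by the authors. The deposited p-value and adjusted p-value are the authors' test of each gene. The tissue is known from each table's name and the sugar group from its headers. No column of values per sample was set aside (0).

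From these, ratios of FPKM plus 0.1, ranks, list counts and medians were computed with Python 3.11.15, pandas 2.3.3 and numpy 2.4.6. No test was refitted, since no values per library were used. The Benjamini-Hochberg adjustment, used only as an alternative, was tested on simulated data. Starts count from 0 in the tables and 1 was added. The members, lists and tests were chosen with earlier results of these data known. The rule for names took all members, called genes and the 2 of highest mean FPKM per chaperone list in each table, genes of the cluster and the 3 nearest profiles of Hsf, Hsp83 and Hsp26. Named outside it, after their values were seen, were Hsc70-1, Hsp60B, Hsp60D, jdp, CaBP1, Cct5, Cyp4g1 and gcl, and the called marker genes. Members were matched to BDGP6 gene models by identifier, and Hsc70-4 by symbol. No sequence is shown.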

Additional observations from a re-analysis of the deposited data

How the results depend on the processing

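The 0 called members in each tissue stayed 0 at adjusted p thresholds of 0.01 and 0.1, and when the adjustment was recomputed over tested genes or over those that reach 1 FPKM. In sperm the recomputed adjusted p of called markers was higher than the authors' deposited one, at 0.0202 against 0.00749 for S-Lap1. Dup99B was not under 0.05 when recomputed. The 0.341% of tested genes called in sperm rests on the deposited values. For the members the median log2 ratio ran from -0.24 to -0.20 in embryos and from -0.33 to -0.25 in sperm over pseudocounts of 0.01 and 1, minimum means of 1 and 5 FPKM, and centring on genes at 10 FPKM or more, whose medians were -0.04 and -0.08; restricting to tested members, an alternative chosen after seeing the data, gave -0.20 and -0.32. All 60 alternatives for single members (pseudocounts and centring) kept their sign. Hsp22 in embryos came to -1.42 with a pseudocount of 0.01 and -0.48 with 1. No paired analysis was possible because each group has 1 combined value, and for the same reason no replicate could be left out. With no counts or values per library, the size of difference that could have been missed is not known for any member.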

Other observations

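Hsp22 carries no test result in either table although it was at 229 and 306 FPKM in sperm on high and medium sugar. In both it carries the mark LOWDATA. That mark was given to 92 genes, the same 92 in both tables, and all 92 share their locus with another gene. In sperm 3 of the 92 had a mean of 100 FPKM or more, Hsp22, CG42662 and a small nucleolar RNA, among 504 genes at that level.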
